A study of Mus musculus with 8 samples.

Results

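The 10 genes described here encode transcription factors of endocrine progenitors and of all islet endocrine lineages: Neurog3, Pax4, Fev, Insm1, Nkx2-2, Rfx6, Rfx3, Myt1, St18 and Etv1. They were taken by symbol from a table of 75078 mouse genes, and each symbol matched 1 row. Messenger RNA was measured in aTC1-6, a glucagon-producing line of mouse pancreatic alpha cells. In 4 samples, numbered 45, 46, 47 and 48, the cells carried an overexpression plasmid for Yy1, which encodes a zinc finger factor able to activate or repress genes. In the other 4, numbered 31, 32, 33 and 34, they had received an empty plasmid. Transfection followed seeding by 24 h in both groups, and the DMEM is given as 11 mM. The labels give neither the promoter on the plasmid, the share of cells that took it up nor the time of harvest, and a single cell line carried both plasmids. Nor do they say whether each sample was a culture of its own, and the p-values therefore reflect only how these samples vary, which may be technical variation.

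In the embryonic pancreas, Notch signalling keeps progenitors undifferentiated, and cells that escape it switch on Neurog3, which starts the endocrine programme. Neurog3 is on only briefly. It turns on a layer of factors that includes Neurod1, Insm1, Nkx2-2, Pax4, Rfx6 and Myt1, and part of that layer stays on in mature islet cells. Pax4 favours the beta and delta lineages.

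Libraries held 29680177 to 33347445 estimated counts with the Yy1 plasmid and 20679804 to 30570601 with the empty plasmid, and the smallest was empty plasmid 33. Yy1 itself stood at 5233 ± 464 CPM (counts per library size, scaled by the trimmed mean of M values, TMM; SD, n = 4) with the Yy1 plasmid and at 175 ± 5.33 CPM with the empty plasmid. A count per gene does not tell plasmid transcript from the endogenous one. Gcg, which encodes proglucagon, averaged 21291 CPM with the Yy1 plasmid and 21228 CPM with the empty plasmid. The beta cell genes Ins1, Ins2 and Ucn3, the PP cell gene Ppy and the exocrine genes Prss1, Prss2, Ptf1a and Cftr had no count in any library. The 10 beta cell markers summed to 108 to 118 CPM with the Yy1 plasmid and 112 to 119 CPM with the empty plasmid, and most of this was Nkx6-1 and G6pc2. The 7 delta, PP and epsilon cell markers summed to 1688 to 1847 CPM with the Yy1 plasmid and 1514 to 1796 CPM with the empty plasmid. Nearly all of this was Rbp4, a retinol carrier, at 1737 CPM with the Yy1 plasmid and 1685 CPM with the empty plasmid, while the delta cell hormone gene Sst had at most 1 count in any library. The 12 acinar and duct markers summed to 16.0 to 18.1 CPM with the Yy1 plasmid and 15.1 to 17.3 CPM with the empty plasmid. The summed level of 12 stromal, endothelial and immune markers ran from 2.35 to 4.45 CPM with the Yy1 plasmid and from 1.76 to 3.88 CPM with the empty plasmid.

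The windows around the annotated starts of 4 of the factors are shown because Yy1 was the gene raised and 2 of the factors, Rfx6 and Rfx3, themselves bind the RFX motif. They come from RefSeq on build GRCm38.p6, an older build than the GRCm39 named for the counts. Each runs 5′ to 3′ on the gene's strand, from 250 bases before the start to 50 after it. Nkx2-2 lies at chr2:147186353-147186652 on the minus strand, Rfx6 at chr10:51685268-51685567 on the plus strand, Rfx3 at chr19:28011117-28011416 on the minus strand and Neurog3 at chr10:62132840-62133139 on the plus strand. Capitals mark the letters searched on both strands, which were GCCAT and CCATNTT for the YY1 core and GTTGCC and GTTACC for the RFX motif. GCCAT and CCATNTT can overlap in the letters CCAT.
Nkx2-2: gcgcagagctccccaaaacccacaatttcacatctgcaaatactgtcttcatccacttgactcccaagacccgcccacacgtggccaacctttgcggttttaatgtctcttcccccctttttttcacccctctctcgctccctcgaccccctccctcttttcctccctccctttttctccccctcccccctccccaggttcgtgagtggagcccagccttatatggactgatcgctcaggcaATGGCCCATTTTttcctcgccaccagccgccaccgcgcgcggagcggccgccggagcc
Rfx6: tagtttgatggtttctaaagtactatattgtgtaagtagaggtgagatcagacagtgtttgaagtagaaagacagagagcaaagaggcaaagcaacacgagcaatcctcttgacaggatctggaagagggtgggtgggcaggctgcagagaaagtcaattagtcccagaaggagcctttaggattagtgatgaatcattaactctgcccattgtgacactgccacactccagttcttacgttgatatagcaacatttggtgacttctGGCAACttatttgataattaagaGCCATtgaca
Rfx3: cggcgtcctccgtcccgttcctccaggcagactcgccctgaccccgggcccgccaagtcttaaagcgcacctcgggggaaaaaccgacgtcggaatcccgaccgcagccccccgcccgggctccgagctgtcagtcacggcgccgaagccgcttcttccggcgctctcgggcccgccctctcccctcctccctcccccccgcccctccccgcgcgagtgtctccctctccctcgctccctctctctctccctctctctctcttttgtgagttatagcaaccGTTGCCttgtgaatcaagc
Neurog3: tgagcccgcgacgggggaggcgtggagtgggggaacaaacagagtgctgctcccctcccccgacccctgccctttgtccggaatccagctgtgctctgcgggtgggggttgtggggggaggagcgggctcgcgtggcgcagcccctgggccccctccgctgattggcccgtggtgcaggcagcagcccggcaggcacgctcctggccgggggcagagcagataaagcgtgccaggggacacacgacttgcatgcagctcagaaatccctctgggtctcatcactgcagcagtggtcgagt
In the Nkx2-2 window the 12 capitals are GCCAT read on the opposite strand followed by CCATTTT, and they span the start. The Rfx6 window holds GTTGCC on the opposite strand and GCCAT, both after the start. The Rfx3 window holds GTTGCC after the start, and the Neurog3 window holds none of the 4 spellings. Windows were given for 7 of the 10 factors, 10 windows in all with 3 for Myt1 and 2 for Etv1, and none was given for Insm1, St18 or Pax4. GCCAT was in 3 of these 10 windows and in 40.5% of all 32851 RefSeq windows of the same length. CCATNTT was in 4 of the 10, with Myt1 holding it in more than 1 window, and in 16.1% of all windows. GTTGCC was in 2 of the 10 and in 12.5% of all, and GTTACC was in 0 of the 10 and in 7.21% of all. These matches are letters, and no binding was measured.

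The factor that starts the programme and the beta lineage factor were at or near 0 with either plasmid. Neurog3 (ENSMUSG00000044312), a basic helix-loop-helix factor, had 0, 0, 0 and 0 counts with the Yy1 plasmid and 0, 1, 0 and 0 with the empty plasmid. Values are given by ascending sample number throughout. Pax4 (ENSMUSG00000029706), a paired homeodomain factor, had 0 counts in all 8 libraries. A count of 0 allows up to 3 counts, which is 0.0900 to 0.101 CPM per library with the Yy1 plasmid and 0.0981 to 0.145 CPM with the empty plasmid. Such limits take in counting error alone, because a read is not an independent molecule. Both genes fell under the filter on low counts, so only the other 8 were tested. In a bulk sample, fewer cells that express a gene and less of its RNA per cell cannot be told apart.

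**Figure D1:**
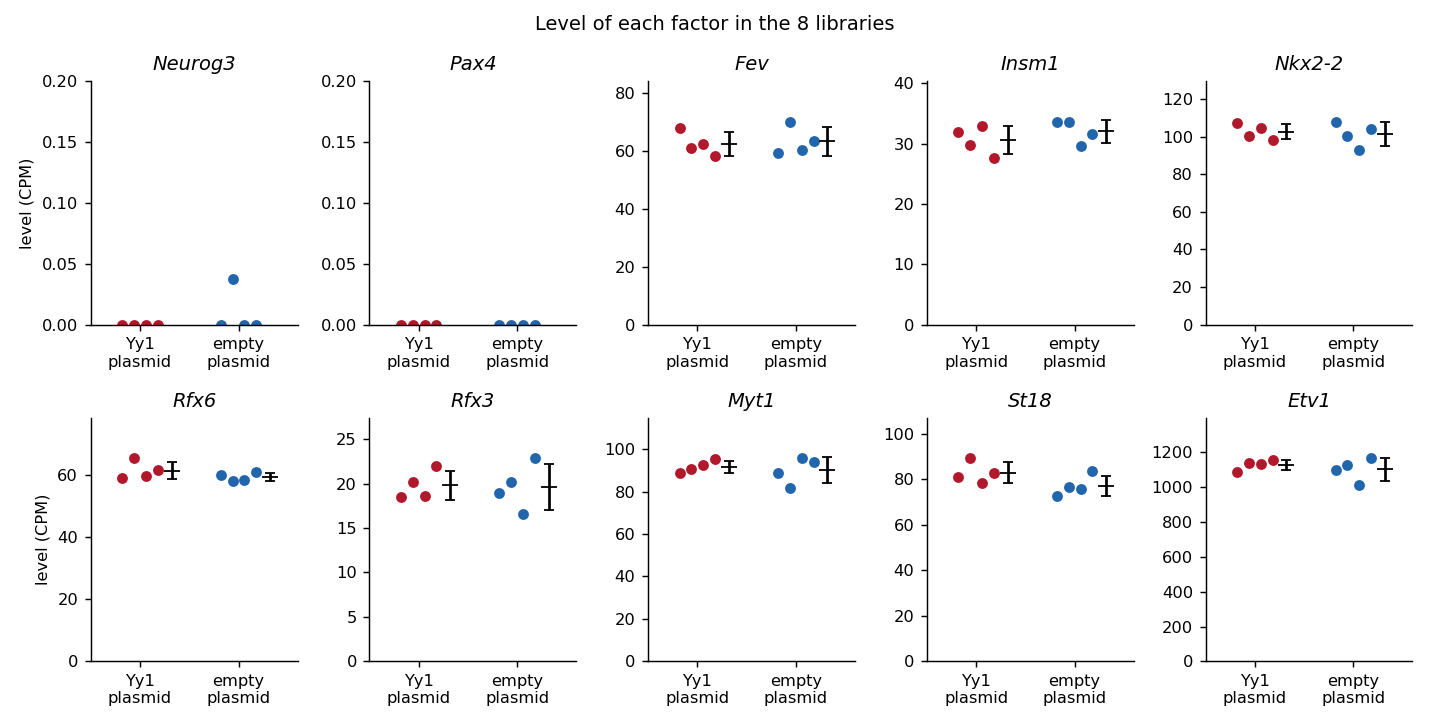
CPM of each of the 10 factors in the 4 libraries with the Yy1 plasmid (red) and the 4 with the empty plasmid (blue), every axis starting at 0. Black marks give the mean ± SD (n = 4) for the 8 tested factors; the groups overlap in every panel, and Neurog3 and Pax4 are at or near 0.

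Fev, Insm1 and Nkx2-2, which follow Neurog3 in the endocrine lineage, were all present. Fev (ENSMUSG00000055197), an ETS factor that marks a late endocrine progenitor and serotonin neurons, had 68.0, 61.2, 62.3 and 58.4 CPM with the Yy1 plasmid. It had 59.2, 70.2, 60.5 and 63.4 CPM with the empty plasmid. Sample 32 was the highest of all 8 and sample 48 the lowest, and the groups overlapped. Insm1 (ENSMUSG00000068154), a zinc finger repressor needed for endocrine differentiation, had 32.0, 29.8, 32.9 and 27.7 CPM with the Yy1 plasmid and 33.7, 33.5, 29.6 and 31.6 CPM with the empty plasmid. Its lowest library was Yy1 plasmid 48, and the groups again overlapped. Nkx2-2 (ENSMUSG00000027434), a homeodomain factor of islet endocrine cells, had 107.4, 100.1, 104.7 and 98.3 CPM with the Yy1 plasmid and 107.9, 100.5, 92.6 and 104.3 CPM with the empty plasmid. Here both the highest and the lowest library had received the empty plasmid.

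The RFX factors share a winged-helix domain that binds the X-box. Rfx6 (ENSMUSG00000019900), which mouse islet cells need to form, had 59.1, 65.4, 59.7 and 61.5 CPM with the Yy1 plasmid and 60.2, 58.2, 58.4 and 60.9 CPM with the empty plasmid. Yy1 plasmid 46 stood above the other libraries, which lay close together. Rfx3 (ENSMUSG00000040929), which drives genes of cilia and is needed for normal islet cells in mice, had 18.4, 20.2, 18.7 and 22.0 CPM with the Yy1 plasmid and 19.0, 20.1, 16.6 and 22.8 CPM with the empty plasmid. Both its highest and its lowest library were in the empty plasmid group, where its coefficient of variation was 13.2%, the largest among the 8 tested factors. In all 8 libraries the estimated counts of Rfx3, Insm1 and Etv1 lay more than 0.01 from a whole number, as happens where kallisto divides reads among transcripts of several genes, and their values are less certain.

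The MYT factors Myt1 and St18 are zinc finger proteins that support endocrine differentiation or act in mature islet cells. Myt1 (ENSMUSG00000010505) had 88.7, 90.4, 92.3 and 95.2 CPM with the Yy1 plasmid and 88.8, 81.8, 95.6 and 93.7 CPM with the empty plasmid. Its lowest and highest libraries were empty plasmid 32 and 33. St18 (ENSMUSG00000033740) had 81.2, 89.3, 78.5 and 83.0 CPM with the Yy1 plasmid and 72.9, 76.6, 75.6 and 83.5 CPM with the empty plasmid. The other 3 empty plasmid libraries lay below all 4 Yy1 plasmid libraries, and sample 34 was higher than 3 of those 4. Etv1 (ENSMUSG00000004151), an ETS factor, had 1087, 1136, 1130 and 1155 CPM with the Yy1 plasmid and 1099, 1124, 1013 and 1164 CPM with the empty plasmid. Empty plasmid 33 was the lowest and empty plasmid 34 the highest, so the Yy1 plasmid libraries lay inside the range of the empty plasmid.

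Levels of different genes were compared as CPM per kb of the median coding transcript in GENCODE M21. Etv1 stood far above the rest at 655 ± 16.5 CPM per kb with the Yy1 plasmid and 639 ± 37.2 with the empty plasmid (SD, n = 4), the 70th highest level per length of 12466 tested protein-coding genes. Nkx2-2 followed with 64.7 ± 2.64 CPM per kb with the Yy1 plasmid and 63.9 ± 4.13 with the empty plasmid. Fev came next with 51.7 ± 3.35 and 52.4 ± 4.05 CPM per kb with the Yy1 and the empty plasmid. Over the 8 libraries the ranges of these 3 did not overlap. St18, Myt1 and Rfx6 lay together, between 17.8 and 22.9 CPM per kb in all libraries, and neighbours among them overlapped. Insm1, at 9.87 ± 0.753 CPM per kb with the Yy1 plasmid and 10.4 ± 0.617 with the empty plasmid, was below them. Rfx3 was the lowest detected factor, at 7.22 ± 0.593 and 7.16 ± 0.943 CPM per kb with the Yy1 and the empty plasmid. By the longest coding transcript Etv1 stood at 171 CPM per kb with the Yy1 plasmid and 167 with the empty plasmid, which was the 268th level, and the ranges of Nkx2-2 and Fev overlapped. The order of St18, Myt1 and Rfx6 was then turned round, and the ranges of Rfx6 and St18 no longer met.

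**Figure D2:**
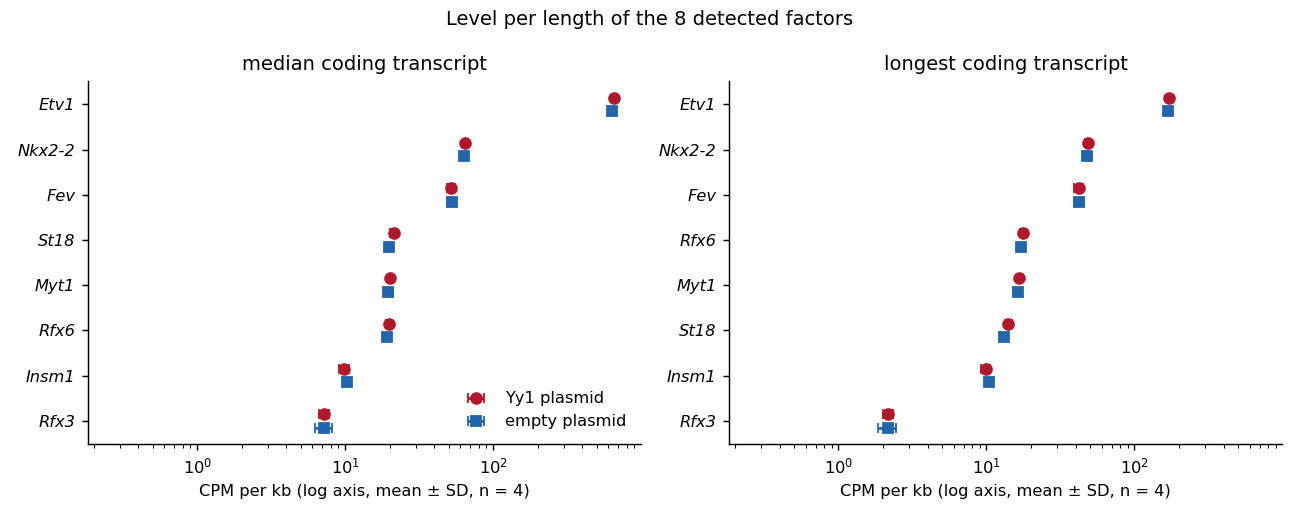
CPM per kb (log axis) of the 8 detected factors, per median (left panel) and longest (right panel) coding transcript, with mean ± SD (n = 4) for the Yy1 plasmid (red circles, upper) and the empty plasmid (blue squares, lower). Etv1 is the highest and Rfx3 the lowest in both panels.

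None of the 8 tested factors passed the test between the plasmids. By edgeR's quasi-likelihood test, two-sided with Benjamini-Hochberg adjustment over all genes, 0 of 8 had an adjusted p under 0.05, against 82 of 15916 tested genes, or 0.515% (0.496% higher and 0.0188% lower with the Yy1 plasmid), and 0.0963% of the protein-coding ones. DESeq2 and limma-voom also called 0 of the 8. An unadjusted p under 0.05 was found for 1 of the 8 and for 5.42% of all tested genes and 4.46% of the protein-coding ones. The groups did not overlap for 0 of the 8, against 3.95% of all tested genes and 3.29% of the protein-coding ones. The median log2 fold change of the 8, Yy1 plasmid over empty plasmid, was 0.02, and the median of all tested genes was -0.0025. Without its sign the median was 0.03 for the 8, against 0.05 for all tested genes and 0.04 for the protein-coding ones.

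St18 had the smallest p of the 8. It averaged 83.0 ± 4.59 CPM with the Yy1 plasmid and 77.1 ± 4.52 CPM with the empty plasmid (SD, n = 4). The log2 fold change was 0.11 (SE 0.0486, 95% interval 0.0042 to 0.206), with an unadjusted p of 0.0419 and an adjusted p of 0.895 by edgeR. In all, 744 of the tested genes had a smaller p. The unadjusted p was under 0.05 in 11 of 19 alternatives, the lowest being 0.0075 without empty plasmid 34. It was over 0.05 without Yy1 plasmid 46 (0.204) or 48 (0.0734), without empty plasmid 31 (0.162), 32 (0.0735) or 33 (0.0681), by DESeq2 (0.0579), by limma-voom (0.0536) and by edgeR without robust fitting (0.0540).

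Insm1 had the largest negative difference, with 30.6 ± 2.33 CPM with the Yy1 plasmid and 32.1 ± 1.91 CPM with the empty plasmid (SD, n = 4). On the log2 scale the difference was -0.07 (SE 0.0608), and the adjusted p by edgeR was 0.98. Rfx6 averaged 61.4 ± 2.83 CPM with the Yy1 plasmid and 59.4 ± 1.33 CPM with the empty plasmid, which differ by 0.05 on the log2 scale (SE 0.0444) with an adjusted p of 0.991 by edgeR. Etv1 averaged 1127 ± 28.5 CPM with the Yy1 plasmid and 1100 ± 64.0 CPM with the empty plasmid, which differ by 0.04 on the log2 scale (SE 0.0444) with an adjusted p of 0.993 by edgeR. The log2 fold changes of Myt1, Nkx2-2, Rfx3 and Fev were 0.03, 0.02, 0.0059 and -0.02, and each had an edgeR adjusted p of 0.997. In percent, the 95% intervals of the 8 reached from -12.8%, for Insm1, to 15.3%, for St18, and 7 of the 8 held 0. The 95% holds for each interval alone. Each is for the mean over all cells of these samples, and the share of cells that took up the plasmid is not given. A p over the threshold does not show that a level stayed the same. The sign of the difference turned for Rfx3, Myt1, Etv1, Fev and Nkx2-2 when single libraries were left out.

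**Figure D3:**
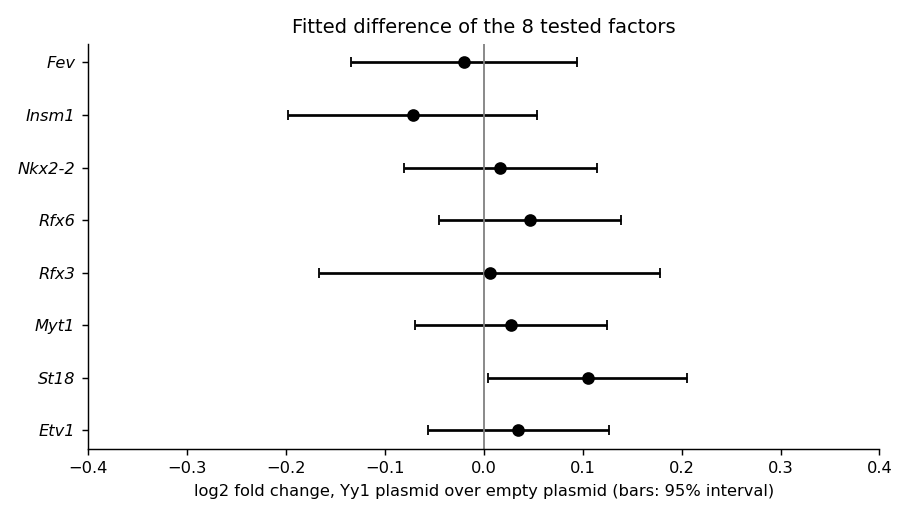
Log2 fold change (Yy1 plasmid over empty plasmid) of the 8 tested factors from edgeR, with 95% intervals. All intervals lie between -0.198 and 0.206, and that of St18, from 0.0042, is the only 1 of the 8 that does not hold 0.

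Within the groups the factors did not vary as a block. Empty plasmid 33, the library with the fewest counts, was the lowest of its group for Rfx3, Insm1, Etv1 and Nkx2-2 and the highest for Myt1. Over the 28 pairs of tested factors, the correlation of log2 CPM after subtracting group means (Pearson's r, 8 libraries that share depth and handling, given without a test) was positive for 16. The highest was 0.933, between Rfx3 and Etv1, and leaving out any single library gave 0.895 to 0.971. The lowest was -0.740, between Myt1 and Fev, and it was -0.396 without empty plasmid 32. Both pairs were picked as the extremes of the 28, and the share of all gene pairs with such values was not counted. Among the Yy1 plasmid libraries, samples 45 and 47 were both below 46 and 48 for Rfx6, Rfx3, St18 and Etv1. They were both above them for Insm1, Fev and Nkx2-2. Among the empty plasmid libraries, samples 31 and 33 were both below 32 and 34 for Rfx3, St18, Etv1 and Fev, and the other 4 factors were mixed. The labels do not say what the numbers stand for, and the part of their order in these values was not tested. The share of all tested genes that split in this way was not counted, so the splits cannot be called particular to these factors. Fitted together with the parity of the sample number, St18 differed by 0.11 (SE 0.0408) on the log2 scale, and its edgeR adjusted p was 0.557.

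**Figure D4:**
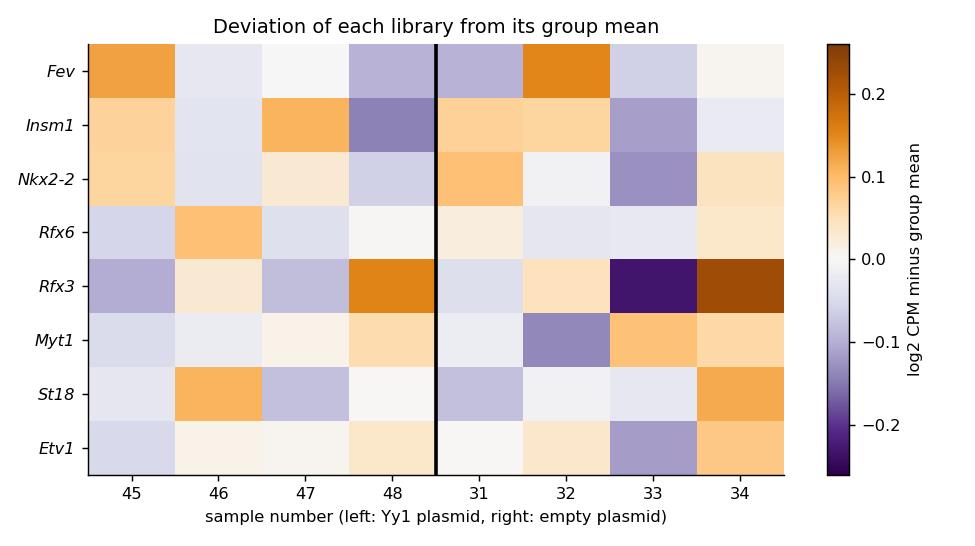
Log2 CPM minus the group mean for the 8 tested factors (rows) in the Yy1 plasmid libraries (left) and the empty plasmid libraries (right). Rfx3 has the widest spread, from -0.231 in empty plasmid 33 to 0.227 in empty plasmid 34.

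The genes around these factors gave no call either, but edgeR called only 0.515% of all tested genes and 0.0963% of the protein-coding ones. With calls this rare, finding 0 among the partner genes does not set them apart from other genes. Of 82 listed partner genes outside the 10, 62 were tested and edgeR called 0, as did DESeq2 and limma-voom, with 5 at an unadjusted p under 0.05 (8.06%, against 5.42% of all tested genes). Their median log2 fold change was -0.0081, and 28 were positive and 34 negative. Among 15 relatives from the same DNA-binding families, 8 were tested, with log2 fold changes from -0.07 to 0.12. Rfx2, a ciliary and testis RFX factor, stood at 12.2 ± 0.944 CPM with the Yy1 plasmid and 11.2 ± 0.484 CPM with the empty plasmid (SD, n = 4), a log2 difference of 0.12 (SE 0.0777). Etv5, an ETS factor close to Etv1, differed by 0.08 (SE 0.0691) on the log2 scale and Rfx1 by -0.07 (SE 0.0646). Myt1l, the neuronal relative of Myt1, is outside the rule for naming genes, and its values had been seen when it was picked. It stood at 85.4 ± 2.13 CPM with the Yy1 plasmid and 85.7 ± 4.98 CPM with the empty plasmid.

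Genes that Neurog3 is known to turn on were present although Neurog3 was not detected beyond 1 count. All 12 on that list were tested, 0 were called, 1 had an unadjusted p under 0.05 and the median log2 fold change was 0.0039. Amotl2, Neurod2 and Mfng, outside the rule for naming genes, lay near the filter, with group means from 0.374 to 0.661 CPM. Pak3, a kinase of endocrine precursors, stood at 130 ± 7.001 CPM with the Yy1 plasmid and 121 ± 6.54 CPM with the empty plasmid (SD, n = 4). The log2 difference was 0.10 (SE 0.0466), and edgeR gave an adjusted p of 0.904. Sox4, a factor that supports endocrine differentiation, differed by 0.08 (SE 0.0486) on the log2 scale, and Hes6, an antagonist of Hes1, by -0.12 (SE 0.0744). Of 22 Notch and progenitor genes, 14 were tested and 0 called, with 6 positive, 8 negative and a median of -0.04. Sox9, the progenitor and duct factor, had 5.43, 4.65, 4.36 and 4.61 CPM with the Yy1 plasmid and 3.83, 3.43, 4.26 and 4.26 CPM with the empty plasmid. All 4 Yy1 plasmid libraries were thus higher, and the log2 difference was 0.27 (SE 0.125) with an adjusted p of 0.89 by edgeR. Sox9 was the only 1 of the 62 tested partner genes whose groups did not overlap (1.61%), against 3.95% of all tested genes. Hey1, a Notch target, differed by -0.09 (SE 0.0576) on the log2 scale and Foxa2, a forkhead factor of endoderm, by -0.07 (SE 0.0481).

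Of 17 partner factors of maturing endocrine cells, 13 were tested and 0 were called. An unadjusted p under 0.05 was found for 2 (15.4%, against 5.42% of all tested genes), and these 2 include Mafa. Mafa, the beta cell factor, had 29, 10, 16 and 13 counts with the Yy1 plasmid and 3, 9, 7 and 9 with the empty plasmid, a log2 difference of 0.98 (SE 0.43) with an adjusted p of 0.854 by edgeR. Its mean was 0.529 CPM with the Yy1 plasmid and 0.275 CPM with the empty plasmid, near the filter on low counts. Mafa passed that filter only with its Yy1 plasmid libraries counted, where it was higher, so the difference is not taken as support for a change. Nkx6-1, a homeodomain factor that Nkx2-2 acts upstream of, differed by -0.10 (SE 0.054) on the log2 scale. Of 19 repressors and cofactors, 18 were tested and 0 called, with 8 positive and 10 negative. Tle2, a Groucho corepressor, differed by -0.16 (SE 0.0764) on the log2 scale with an adjusted p of 0.909 by edgeR. Rcor1, a partner of Insm1 in repression, differed by -0.08 (SE 0.0471), and Tcf4, an E protein, by 0.06 (SE 0.043). Estimated counts over 0.01 from a whole number also occurred among the partner genes, whose values are then less certain. They were found in 8 libraries for Etv5 and Tcf4, 7 for Rfx2, 5 for Rfx1 and Sox4, and 2 for Sox9 and Tle2. Rest, the repressor of neuronal and endocrine genes, was likewise picked with its values seen and had 5, 8, 1 and 3 counts with the Yy1 plasmid and 0, 2, 1 and 2 with the empty plasmid.

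**Figure D5:**
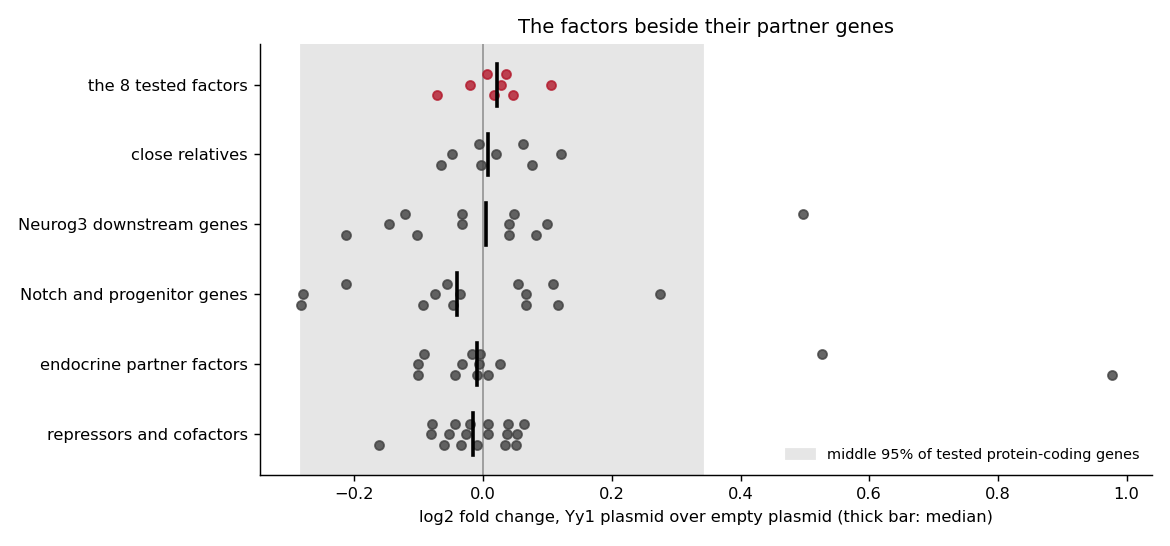
Log2 fold change (Yy1 plasmid over empty plasmid) of the 8 tested factors (red, top) and of the tested genes of the 5 partner lists, with each list's median as a thick bar. The grey band is the middle 95% of 12466 tested protein-coding genes, from -0.28 to 0.34, and the 8 factors all lie inside it.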

How the data were processed

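Per the submitters' processing notes, fastp, kallisto and build GRCm39 were used, with no versions given, and how transcripts were summed to genes is not given in the sources used here. Per the labels' protocols, poly(A) RNA went into a directional library kit. The table deposited by the authors holds expected counts (estimated counts per gene), not scaled for depth, in 8 columns that the sample descriptions tie to samples. They were rounded to whole numbers. Symbols came from GENCODE mouse M21 and matched 48278 of 75078 IDs.

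The filter was filterByExpr, at a count of 10 and a total of 15, which left 15916 genes. After TMM scaling, glmQLFit (robust) and glmQLFTest of edgeR 4.0.16 were run under R 4.3.3, and an adjusted p under 0.05 counted as a call. Standard errors are the absolute log2 fold change divided by the square root of F. Other settings used DESeq2 1.42.0, limma 3.58.1 and sva 3.50.0, and the fit was tested on simulated data. The 12 replicate pairs differed by more than counting noise (chi-square per degree of freedom 2.92 to 13.9), so none was treated as 1 library deposited again; this does not say whether they were separate cultures. CPM of all genes use TMM-scaled library sizes. The 10 factors and the lists were chosen with earlier results of these data known. The rule named the 10 factors, Yy1, Gcg, the 3 genes with the smallest p in each partner list and up to 2 abundant markers per cell type, of which only those that bear on a result are given, and 1 gene the rule named is not reported here. Alternatives were other scalings, filters and tools, 1 surrogate variable, edgeR without robust fitting, Yy1 left out, each library left out and, added after seeing earlier results, the parity of the sample number as a term.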

Additional observations from a re-analysis of the deposited data

Results flagged for a closer look

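Among the 8 tested factors no library stood apart from its group. Of 50 groups of 4 libraries checked, for these factors, the named partner genes, Yy1 and Gcg, 3 had a library far from the others, and chance gives about 1 in 20. Rfx2 was at 13.6 CPM in Yy1 plasmid 47, with the other 3 Yy1 plasmid libraries between 11.7 and 11.8 CPM. Hes6 was at 15.8 CPM in Yy1 plasmid 48, with the other 3 between 18.6 and 19.1 CPM. Mafa was at 0.0974 CPM in empty plasmid 31, with the other 3 empty plasmid libraries between 0.322 and 0.343 CPM.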

How the results depend on the processing

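Under all 19 alternatives 0 of the 8 tested factors and 0 partner genes were called. Neurog3 entered only the fit with no filter and was not called, and Pax4 entered none. The 152 log2 fold changes of the 8 ran from -0.108 to 0.146, and the lowest adjusted p was 0.41 by edgeR, for St18 without empty plasmid 34. Rfx6, St18 and Insm1 kept their sign throughout. That of Rfx3 turned with 1 surrogate variable (-0.0117). Leaving out 1 library, Rfx3 ran from -0.0595 to 0.0864 and turned without Yy1 plasmid 46 or 48 or empty plasmid 31 or 33. Myt1 ran from -0.0158 to 0.0567 and turned without empty plasmid 32. Etv1 ran from -0.0025 to 0.0629 and turned without empty plasmid 33. Fev ran from -0.065 to 0.0328 and turned without Yy1 plasmid 48 or empty plasmid 32. Nkx2-2 ran from -0.0225 to 0.0465 and turned without Yy1 plasmid 45 or empty plasmid 33. Over all genes 79 were called higher and 3 lower. With no filter these counts were 151 and 23, and with 1 CPM in 4 libraries 52 were higher. Lower calls were 5 with DESeq2, 8 with 1 surrogate variable, 6 with number parity in the model and 2 to 7 with 1 library left out; the cause was not tested. No paired analysis was possible because the groups share no sample numbers. Depth limits what can be said of Neurog3 and Pax4: a count of 0 is compatible with up to 3 counts per library.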

Other observations

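Neurog2, the neural relative of Neurog3, was chosen after its values were seen. It had 13, 7, 8 and 9 counts with the Yy1 plasmid and 2, 2, 0 and 0 with the empty plasmid, so all 4 Yy1 plasmid libraries were higher. It fell under the filter, and with no filter its log2 fold change was 2.82 (SE 0.786) with an edgeR adjusted p of 0.0713. The groups did not overlap for 3.95% of all tested genes. That share was not counted among genes under the filter, so the separation cannot be called particular to Neurog2. Neurog1 had 0, 0, 0 and 1 counts with the Yy1 plasmid and 0 in all empty plasmid libraries. Insm2, Rfx8 and Nkx2-4, relatives of Insm1, the RFX factors and Nkx2-2, had 0 counts in all 8 libraries. Foxa1, a relative of Foxa2, had at most 1 count in any library.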
